A study of Mus musculus with 10 samples.

Results

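The cytosolic ribosomal protein genes of mouse were taken from the deposited table as the rows annotated protein_coding whose symbol starts with Rpl or Rps and a digit, or is Rplp0, Rplp1, Rplp2 or Rpsa, without the Rps6k kinase genes. This gave 93 of the 78317 genes listed, 56 with large subunit names and 37 with small subunit names. Their levels come from sequencing of poly(A) RNA of 1-mm punches of medial prefrontal cortex from wild-type mice. The miR-130a-3p AAV group was 5 libraries (numbers 13, 14, 15, 17 and 18) from mice given an adeno-associated virus that overexpresses the microRNA miR-130a-3p, and the control AAV group was 5 libraries (numbers 3, 4, 5, 7 and 9) from mice given a control virus. All animals therefore carried a virus. The promoter of the virus and the age and sex of the mice are not given in the sources used here, and the labels do not say how many mice gave the 10 libraries, so p-values measure the spread between libraries. The values are TPM, relative abundances of transcripts scaled per length and to the same total in every library, and the number of reads behind each value is unknown.

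Each cytosolic ribosome is built from a large subunit, which joins amino acids, and a small subunit, which reads the messenger RNA. Their proteins are needed in nearly equal amounts, and their messages are among the most abundant in any cell. Most of these messages begin with a terminal oligopyrimidine (TOP) tract, an unbroken run of C and T letters at the start of transcription, through which mTOR signalling and the protein LARP1 control their translation as a group. In neurons they are also translated in dendrites and axons. A microRNA pairs through its seed, bases 2 to 8, with sites in the 3′ untranslated regions of messages and lowers them.

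The overexpressed microRNA is shown first because its seed decides which messages could carry a site, with the seed in capitals (RefSeq, GRCm38.p6, chr2:84741116-84741137, minus strand).
miR-130a-3p: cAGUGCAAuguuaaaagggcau
The sites TTGCACT and TGCACTA, which pair with this seed, were searched on the sense strand in the longest annotated 3′ untranslated region of each gene. The 2 sites share the letters TGCACT. Of 87 tested ribosomal protein genes with such a region, 1 held a site (1.15%), against 2229 of 13308 tested genes (16.7%). The ribosomal regions were short, with a median of 207 bases against 1392 bases over all tested genes. The gene with a site was Rps20, a protein of the small subunit head, which held 2 copies of TTGCACT in a long annotated region of 3167 bases. The first is shown with its neighbours and the match in capitals.
Rps20 site: aaaagtgtatTTGCACTgtataccatg
Rps20 had 160, 138, 157, 172 and 152 TPM in the miR-130a-3p AAV libraries, against 151, 142, 201, 160 and 303 TPM in the control AAV libraries. The groups overlapped, control 9 was highest, and the difference did not pass the test (log2 fold change −0.24 ± 0.18 SE, limma adjusted p = 0.425). Mir130a itself could not be read from these data, since 0 of 2206 microRNA rows had a value above 0.

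The starts of 67 members were found in the RefSeq promoter table. A run of at least 8 letters that are all C or T, searched on the gene's own strand within 50 bases either side of the annotated start, was present in 54 of these 67 (80.6%) and in 4150 of 10981 tested genes found there (37.8%), taking the longest run over a gene's annotated starts. Over all 32851 annotated starts the share was 35.7%. A run anywhere in this window was counted, so these shares are not counts of TOP tracts, which lie at the start of transcription. Whether a run is a TOP tract was not tested. The 6 genes whose levels passed the test below are shown with their longest run in capitals. Of these, 5 carry a run of at least 8 letters and 1, Rplp0, has a run of 7. Relative to the annotated start, the runs begin at 11 (Rplp0), 40 (Rpl10), 26 (Rpl4), 2 (Rpl13a), −15 (Rps15a) and 1 (Rpl22l1). The run of Rpl10 reaches the edge of the window, so its full length is not known.
Rplp0, chr5:115559466-115559495, plus strand: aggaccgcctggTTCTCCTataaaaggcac
Rpl10, chrX:74270846-74270865, plus strand: cgtgggagcgTCTCTTTTCC
Rpl4, chr9:64173405-64173434, plus strand: gagcgtggCCTTCTCCTCTCCCCgtcatgg
Rpl13a, chr7:45128722-45128751, minus strand: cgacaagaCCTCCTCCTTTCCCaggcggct
Rps15a, chr7:118116143-118116172, minus strand: gcccggcccaCTCTCTTTCTgccatcttcc
Rpl22l1, chr3:28805499-28805528, plus strand: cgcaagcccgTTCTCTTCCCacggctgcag
These sequences are from RefSeq, GRCm38.p6. The length of the run was unrelated to the size of the change across the 63 tested members with both values (Spearman rho 0.02, a description across genes that share the same 10 libraries).

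Of the 93 members, 88 had a mean of at least 1 TPM and were tested. The 5 others were Rpl10l and Rpl39l, known from germ cells, the muscle paralog Rpl3l, and the retrotransposed copies Rpl27rt and Rps23rg1, which were at most 0.43 TPM in any library. Rpl10l was listed at 0 in all 10 libraries. Rpl3l lay between 0.29 and 0.96 TPM in the miR-130a-3p AAV group and between 0 and 0.61 TPM in the control AAV group, and Rpl39l between 0 and 0.31 and between 0 and 2.68 TPM. The 77 genes of the core ribosome ranged from 19.1 to 2310 TPM with a median of 610 TPM, and 16 members reached 1000 TPM or more. The most abundant of the large subunit were Rplp1 of the stalk, Rpl13a and Rpl41, and those of the small subunit Rps15, Rps21 and Rps27. Lowest among the tested members were the retrotransposed Rpl35rt, the copies Rpl9-ps6 and Rps18-ps6, Rps4l, a relative of Rps4x, and the core genes Rpl12 and Rpl5.

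Together the members took 5.89, 5.21, 5.31, 6.81 and 5.30% of TPM in the miR-130a-3p AAV libraries 13, 14, 15, 17 and 18, against 5.66, 5.29, 4.58, 6.12 and 7.90% in the control AAV libraries 3, 4, 5, 7 and 9. The means were 5.71% ± 0.675 and 5.91% ± 1.25 (SD, n = 5 each), and the groups overlapped. The control group held both the lowest library, control 5, and the highest, control 9. In the plot of these shares, miR 17 stands above the other 4 libraries of its group.

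**Figure D1:**
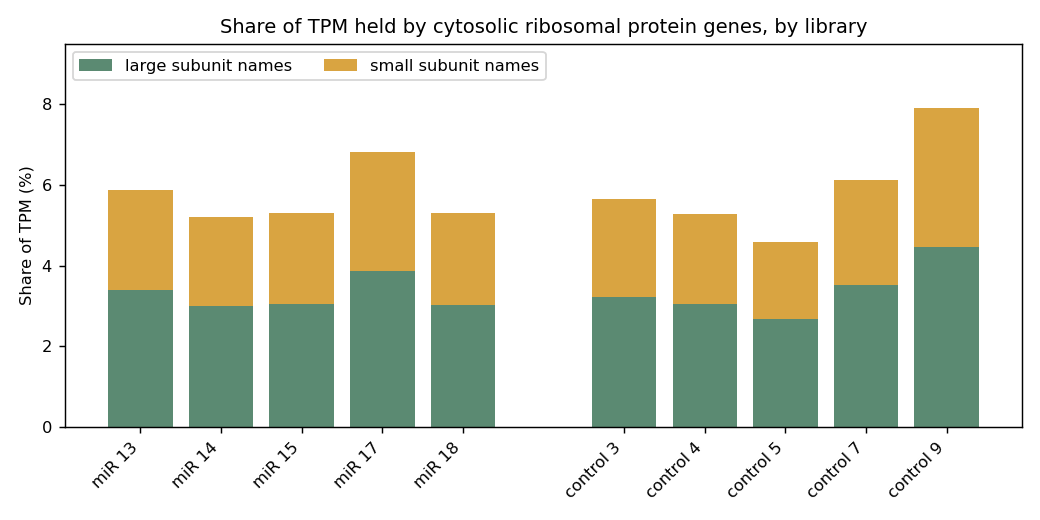
Share of TPM (%) held by the ribosomal protein genes in each library, with large subunit names below and small subunit names stacked above. The miR-130a-3p AAV libraries lie between 5.21 and 6.81%, inside the control AAV range of 4.58 to 7.90%.

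The balance of the 2 subunits was similar in all libraries. The ratio of large to small subunit TPM was 1.36, 1.35, 1.34, 1.32 and 1.33 in the miR-130a-3p AAV libraries, against 1.33, 1.35, 1.42, 1.37 and 1.31 in the control AAV libraries. It averaged 1.34 ± 0.0144 and 1.36 ± 0.0427 (SD, n = 5 each), so the ratio differed between the groups by less than the spread of the controls. Over the core genes alone it was 1.30 ± 0.0128 and 1.33 ± 0.0438. The median deviation from each gene's mean, on the log2(TPM + 1) scale, was 0.22 for large and 0.20 for small subunit members in miR 17, 0.42 and 0.49 in control 9, and −0.24 and −0.29 in control 5. Control 9 gave the highest control value for 79 of the 88 tested members and control 5 the lowest for 70, while miR 17 was the highest of its group for 73. The median coefficient of variation of a member was 12.8% in the miR-130a-3p AAV group and 23.4% in the control AAV group, and 70 of 88 members varied more among the controls.

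Other contents of the libraries also differed. Summed TPM of 10 neuronal markers was 6415 to 7829 in the miR-130a-3p AAV group and 5143 to 9069 in the control AAV group. It was lowest in control 9 and highest in control 4, with 8768 in control 5. Of 11 microglial markers, 10 were lower and 0 higher (90.9% and 0%). Over all tested genes, the background for this and the next marker counts, 11.3% were lower and 2.19% higher. The microglial sum was 710.1 to 1047 against 1859 to 3862 TPM, again highest in control 9. For the 8 endothelial and mural markers 7 were lower and 0 higher, with sums of 193 to 251 against 285 to 345 TPM. None of 8 oligodendrocyte and 1 of 8 astrocyte markers passed, that 1 being lower. Lymphoid markers summed to 2.83 to 13.04 against 13.1 to 91.6 TPM, with 4 of 6 tested members lower. That list includes Ptprc, a gene of leukocytes in general, so its sum does not measure lymphoid cells alone. The 5 choroid plexus markers summed to 1.31 to 4.57 against 2.71 to 4.70 TPM, which is close to 0. Mitochondrially encoded genes took 18.2% ± 1.96 against 14.7% ± 1.48 of TPM (SD, n = 5 each; 2-sided exact permutation p = 0.0397), which did not pass without miR 14, 15 or 18 or control 4, 5 or 7 (up to 0.0714). All pseudogene rows took 10.5% ± 0.498 against 9.73% ± 0.519 (SD, n = 5 each; 2-sided exact permutation p = 0.0397), which passed only without miR 17, control 7 or control 9 when 1 library was left out (up to 0.0794). The part of these in the levels of ribosomal protein genes was not tested, and fewer cells of a type cannot be told apart from less RNA per cell in bulk tissue.

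Gene by gene, few members differed between the groups. In limma on log2(TPM + 1), with p-values adjusted over all 15680 genes tested and a threshold of 0.05, 5 of 88 members were lower in the miR-130a-3p AAV group (5.68%), where 11.3% of all tested genes were lower, and 1 was higher (1.14%), where 2.19% of all genes were. The remaining 82 did not pass. Median-ratio scaling, which moved the median of all genes up by 0.10, ended all 5 lower calls and gave 2 higher members. Quantile normalization, which moved it by 0.15, also gave 2 higher members but kept 4 lower ones, all but Rpl13a (limma adjusted p = 0.0702). Rescaled without mitochondrially encoded genes, 4 members were lower and 1 higher. Of all genes called, 16.3% were higher in the fit as given, 42.0% with median-ratio scaling and 50.6% with quantile normalization. When single libraries were left out, 3 to 5 members were lower and 0 to 3 higher; the 3 were Rpl22l1, Rpl31 and Rpl36a without control 9. By subunit, 4 of 52 large and 1 of 36 small subunit members were lower, and 1 large and 0 small subunit members were higher. At an unadjusted p under 0.05 there were 6 large and 2 small subunit members. The median log2 fold change was −0.05 over the members, −0.03 over the large and −0.05 over the small subunit members, against −0.09 over all tested genes. For 3 members, or 3.41% of those tested, every miR-130a-3p AAV value lay below every control value, and for 0 above; over all genes 9.46% were separated downward and 1.85% upward. The ranked plot shows this narrow spread.

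**Figure D2:**
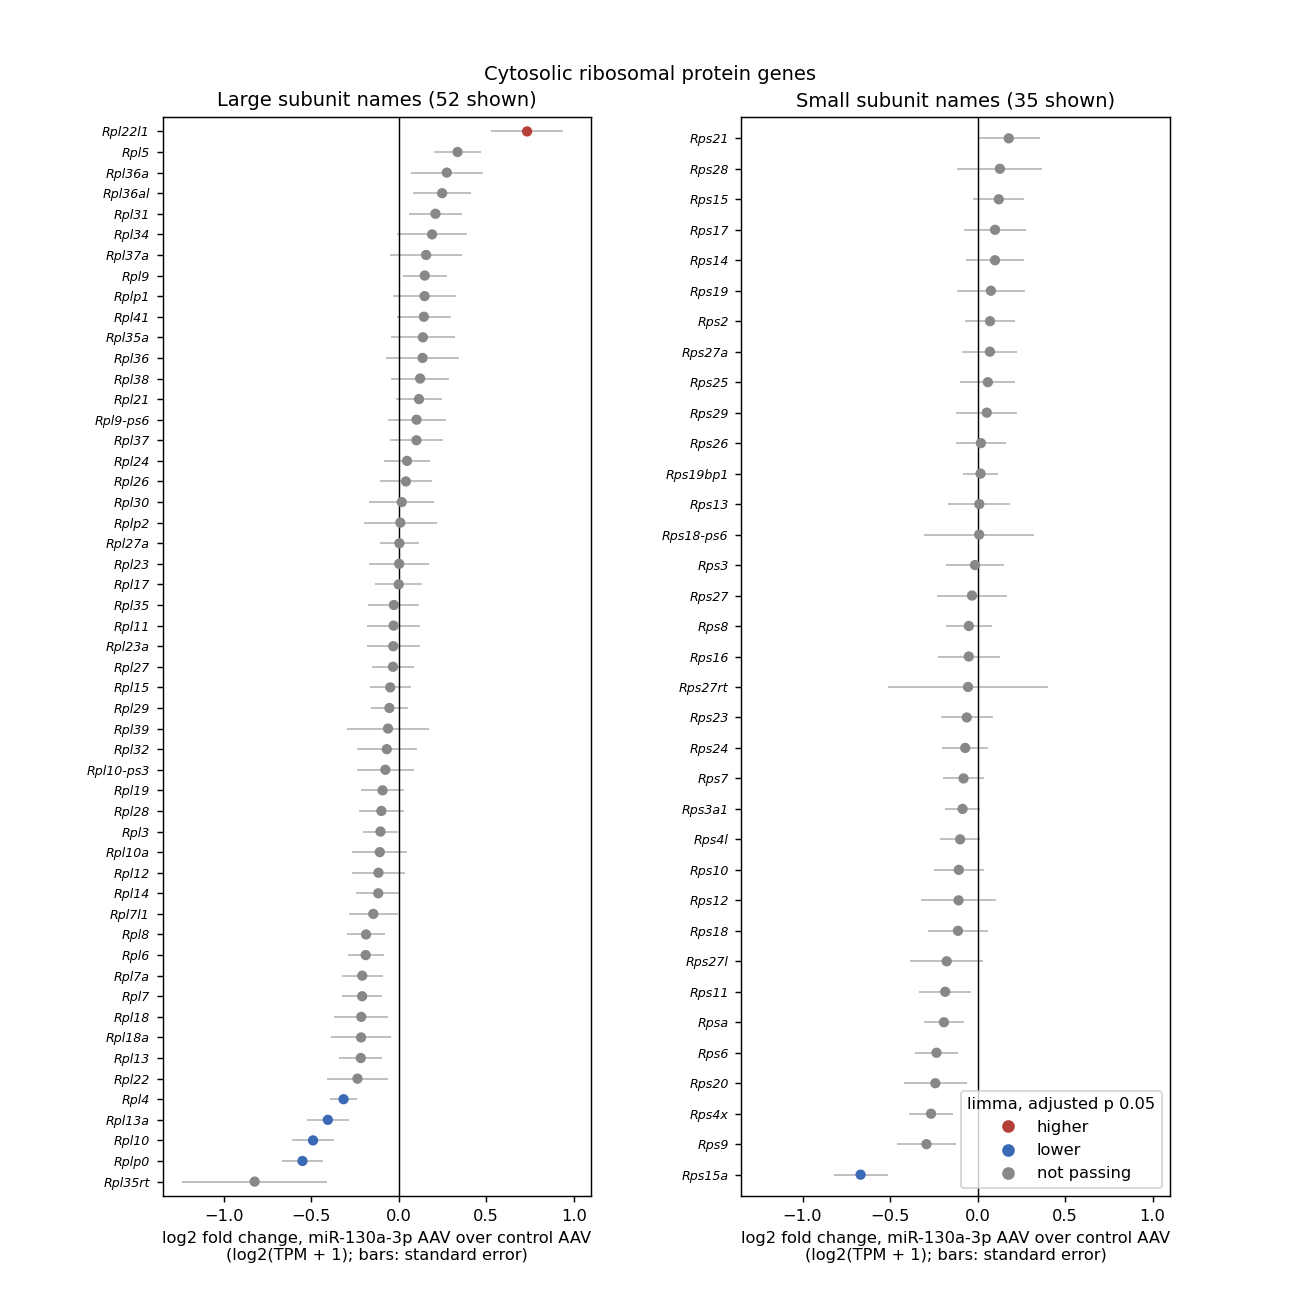
Log2 fold change on the log2(TPM + 1) scale (miR-130a-3p AAV over control AAV, bars are standard errors) of 52 large and 35 small subunit members, coloured by the limma call. The 4 lower and 1 higher large subunit genes and the 1 lower small subunit gene lie towards the ends of a continuous range around 0, with the scarce Rpl35rt lowest at −0.82 without passing.

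The P stalk is the flexible arm of the large subunit that recruits elongation factors. Its base protein gene Rplp0 (ENSMUSG00000067274) had 329, 284, 309, 407 and 324 TPM in the miR-130a-3p AAV libraries, against 431, 459, 440, 560 and 528 TPM in the control AAV libraries. Every miR-130a-3p AAV library lay below every control library. It fell by 0.55 ± 0.11 (SE) on the log2 scale, or by 0.46 relative to the median of all genes (limma adjusted p = 0.00982). The call held without any one library, with adjusted p-values from 0.00594 to 0.0317, and was lost with median-ratio scaling at 0.0768. Its partners in the stalk did not pass: Rplp1 averaged 2393 ± 250.2 and 2226 ± 661 TPM (SD, n = 5 each; limma adjusted p = 0.648), Rplp2 396 ± 83.1 and 405 ± 144 TPM (0.984) and Rpl12, which sits at the stalk base, 18.1 ± 1.83 and 20.1 ± 4.74 TPM (0.672). Whether Rplp0 differed from its partners was not tested.

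The peptidyl transferase centre and the exit tunnel are where the peptide bond forms and the new chain leaves. Rpl4 (ENSMUSG00000032399), whose protein lines the tunnel, had 600.2, 578, 555, 631 and 588 TPM in the miR-130a-3p AAV libraries, against 718, 702, 746, 744 and 763 TPM in the control AAV libraries. The groups were separate and narrow, and Rpl4 fell by 0.32 ± 0.07 (SE) on the log2 scale (0.22 relative to all genes; limma adjusted p = 0.0174). The call was lost without control 7 (adjusted p = 0.0540) and with median-ratio scaling (0.222), over a range of 0.0113 to 0.222 in all alternatives. On the list of 9 genes named for the exit tunnel, Rpl4 alone was lower (11.1%, near the 11.3% of all tested genes) and 0 were higher. Their median log2 fold change was −0.03. Rpl10 (ENSMUSG00000008682), whose protein joins the subunit late and completes the transferase centre, had 297, 231, 275, 345 and 258 TPM in the miR-130a-3p AAV libraries, against 362, 356, 428, 370.4 and 450.1 TPM in the control AAV libraries. Again no value of the 2 groups overlapped (log2 fold change −0.49 ± 0.12 SE, −0.39 relative to all genes; limma adjusted p = 0.0191). Without miR 14 the adjusted p was 0.0521, with no filter on low values 0.0511, and with median-ratio scaling 0.110.

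Rpl10 shares its sequence with Rpl10-ps3, a row that the table also annotates as protein-coding, described here after its values were seen. Rpl10-ps3 averaged 454 ± 37.6 TPM in the miR-130a-3p AAV group and 492 ± 136 TPM in the control AAV group and did not pass (limma adjusted p = 0.809). When copies were added to the row of their parent gene, a choice made after seeing the data, Rpl10 no longer passed (log2 fold change −0.26, limma adjusted p = 0.206). How the reads of such near-identical copies were divided is uncertain. The list named for the peptidyl transferase side held Rpl3, Rpl8, Rpl10, Rpl10a and Rpl36a, which do not all lie at the centre itself. It counted 1 lower and 0 higher of 5 members (20.0% and 0%), beside 11.3% and 2.19% over all tested genes. Its median of −0.11 is the value of Rpl10a.

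Rpl13a (ENSMUSG00000074129), a large subunit protein with a known role outside the ribosome in silencing inflammatory messages in human myeloid cells, had 2100.2, 1714, 1682, 2302 and 1853 TPM in the miR-130a-3p AAV libraries, against 2213, 2492, 2384, 2740.3 and 2921 TPM in the control AAV libraries. The ranges overlapped through miR 17 and control 3. It fell by 0.41 ± 0.12 (SE) on the log2 scale (0.31 relative to all genes; limma adjusted p = 0.0455). Leaving out any single library other than miR 17 ended the call, with adjusted p-values of 0.0514 to 0.121. With median-ratio scaling it was 0.272, and with no filter on low values 0.193. Of the 10 alternatives other than leaving out a single library, 4 kept the call.

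In the small subunit Rps15a (ENSMUSG00000008683), a body protein, was the only member called. It had 295, 247, 285, 378 and 320 TPM in the miR-130a-3p AAV libraries, against 580, 521, 354, 563 and 423 TPM in the control AAV libraries. The groups overlapped through miR 17 and control 5, the library in which most members were lowest. Rps15a fell by 0.67 ± 0.15 (SE) on the log2 scale (0.57 relative to all genes; limma adjusted p = 0.0155), held without any one library (limma adjusted p 0.00694 to 0.0469) and was at 0.0573 with median-ratio scaling. Of the 17 body genes 1 was lower (5.88%) and 0 higher, with a median of −0.07. Of the 14 head genes 0 were lower or higher, with a median of 0.02. Over all tested genes 11.3% were lower and 2.19% higher. Rps4x, an X-linked body protein, was at 554 ± 75.7 and 667 ± 103 TPM (SD, n = 5 each; limma adjusted p = 0.183).

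**Figure D3:**
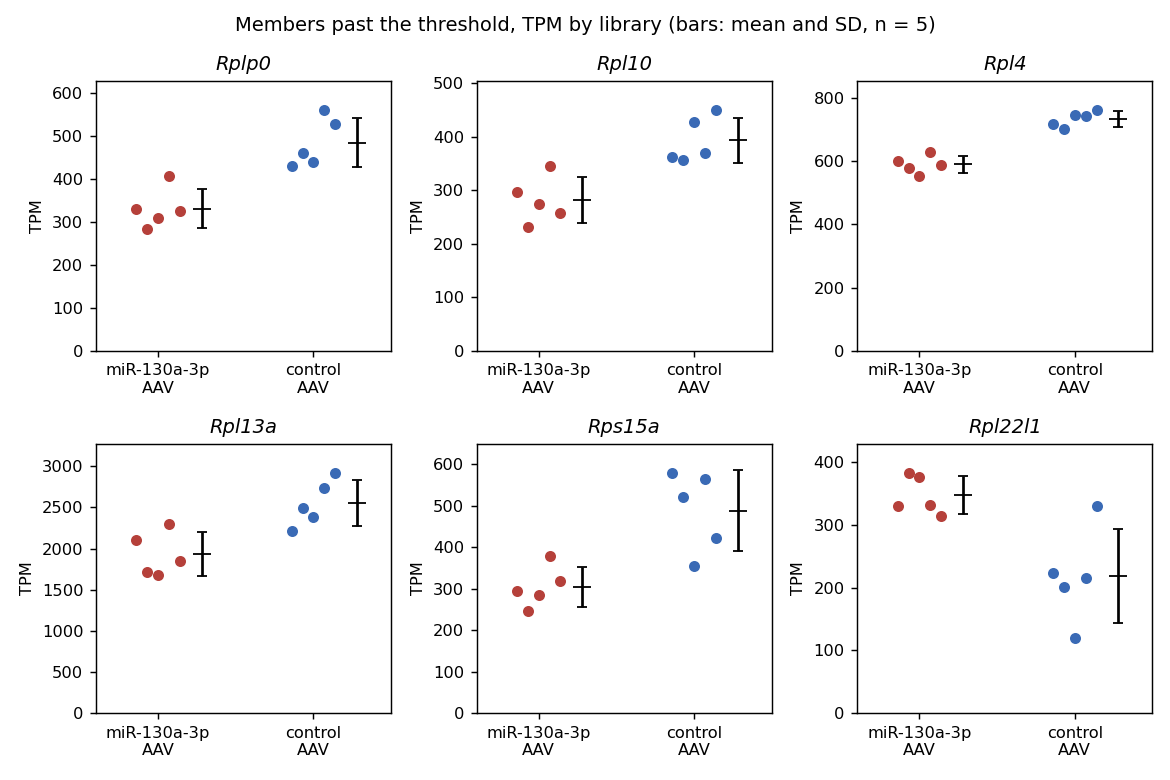
TPM by library of the 6 members past the threshold, with the mean and SD of each group (n = 5). Rplp0, Rpl10 and Rpl4 separate the groups, while Rpl13a, Rps15a and Rpl22l1 overlap.

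The paralogs and relatives of ribosomal proteins were 10 members, of which 7 were tested. Rpl22l1 (ENSMUSG00000039221) was the 1 that was higher (14.3%) and 0 were lower, beside 2.19% higher and 11.3% lower over all tested genes. It had 330.5, 383, 376, 331 and 314 TPM in the miR-130a-3p AAV libraries, against 224, 201, 120.2, 216 and 330.4 TPM in the control AAV libraries. Only control 9, in which nearly all ribosomal protein genes were high, reached the miR-130a-3p AAV range. The log2 fold change was 0.73 ± 0.21 (SE), or 0.83 relative to all genes (limma adjusted p = 0.0377). The call held without control 5 (0.0369) or control 9 (0.00568) and was lost without any other single library, up to 0.0929, and with no filter on low values (0.106). Rpl22l1 can replace Rpl22 in the ribosome, and in mouse the Rpl22 protein represses the Rpl22l1 message. Rpl22 averaged 331 ± 36.5 and 402 ± 126 TPM (SD, n = 5 each), a pair looked up because of the values of Rpl22l1, and was not called (log2 fold change −0.24, limma adjusted p = 0.414). The ratio of Rpl22l1 to Rpl22 TPM is not moved by a factor that all genes of a library share. The ratio was 1.13, 1.21, 1.11, 0.848 and 0.985 in the miR-130a-3p AAV libraries, against 0.577, 0.610, 0.411, 0.560 and 0.537 in the control AAV libraries. This ratio, computed after the values were seen and given without a test, was higher in every miR-130a-3p AAV library than in any control library, control 9 included.

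The other paralogs showed no call. Rpl36al, a near-copy of Rpl36a, was at 267 ± 23.2 and 231 ± 65.0 TPM (SD, n = 5 each; limma adjusted p = 0.361). Rps27l, a relative of Rps27 that p53 induces, was at 63.7 ± 11.7 and 74.3 ± 24.9 TPM (0.635), while Rps27 itself was at 1812 ± 253 and 1911 ± 582 TPM (0.941). Rps27rt was at 37.3 ± 16.96 and 43.3 ± 26.8 TPM (0.957), Rps4l at 16.9 ± 2.31 and 18.1 ± 2.14 TPM (0.622) and Rpl7l1, a relative of Rpl7, at 34.0 ± 3.90 and 38.3 ± 8.61 TPM (0.540). Rps19bp1, which binds Rps19 and matches the name rule without being a core ribosomal protein, was at 46.4 ± 5.90 and 45.7 ± 3.72 TPM (0.938). Rpl9-ps6, Rps18-ps6 and Rpl35rt averaged 8.08 ± 1.96, 2.09 ± 1.27 and 0.414 ± 0.566 TPM in the miR-130a-3p AAV group, against 7.37 ± 1.26, 1.91 ± 0.823 and 1.74 ± 1.62 TPM in the control AAV group, all without passing.

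The particle of Rpl5 and Rpl11, which docks the 5S ribosomal RNA on the large subunit and binds Mdm2 when assembly fails, had no member past the threshold. Rpl5 was at 20.3, 23.4, 32.6, 21.5 and 24.9 TPM in the miR-130a-3p AAV libraries, against 18.7, 16.0, 19.9, 18.5 and 22.2 TPM in the control AAV libraries. Its groups overlapped (log2 fold change 0.34 ± 0.13 SE, limma adjusted p = 0.116), and it passed upward with median-ratio scaling (0.0381) and quantile normalization (0.0282). Rpl11 averaged 596 ± 88.0 and 614 ± 144 TPM (0.928). Per length Rpl5 was listed at a mean of 21.8 TPM and Rpl11 at 605 TPM over all libraries, although their proteins enter the ribosome in equal number.

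The table held 309 pseudogene rows named after a ribosomal protein gene, of which 119 had a value above 0 and 24 were tested. Of these 24, 0 were lower or higher, beside 11.3% lower and 2.19% higher over all tested genes. The 309 rows took 0.372% ± 0.0454 and 0.412% ± 0.113 of TPM (SD, n = 5 each). Named after their values were seen, Rps23-ps1 averaged 822 TPM over the 10 libraries, above its parent gene Rps23 at 260.1 TPM, and Rpl31-ps8 848 TPM, above Rpl31 at 452 TPM. How reads were shared among such copies is not given in the sources used here, so the level of a single member with a copy is uncertain. With the pseudogene rows added to the members, the group means of the share were 6.08% and 6.32%.

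Longer members had lower fold changes. Across the 87 tested members with an annotated coding length, Spearman's rho between log2 fold change and coding length was −0.51 (Pearson r −0.36), against −0.17 over 13506 tested genes (Pearson r −0.04), both given as descriptions across genes that share the same libraries. The 29 shortest members, with 141 to 402 coding bases, had a median log2 fold change of 0.06, and 10 of them were below 0. The 29 middle ones, of 408 to 579 bases, had a median of −0.0003 and 15 below 0. The 29 longest, of 585 to 1260 bases, had a median of −0.19 and 26 below 0, and held 4 of the 5 lower genes. The shortest, Rpl41, which encodes a peptide of the large subunit, was at 1574 ± 225 and 1440.4 ± 318 TPM (SD, n = 5 each; limma adjusted p = 0.590), and Rps21, also in the shortest group, at 2367 ± 293 and 2143 ± 603 TPM (0.556). Rps15, in the middle group with 438 coding bases, was at 2359 ± 290.2 and 2189 ± 430 TPM (SD, n = 5 each; limma adjusted p = 0.639). Against this trend stood Rps15a (393 coding bases, log2 fold change −0.67) and Rpl5 (894 coding bases, 0.34).

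**Figure D4:**
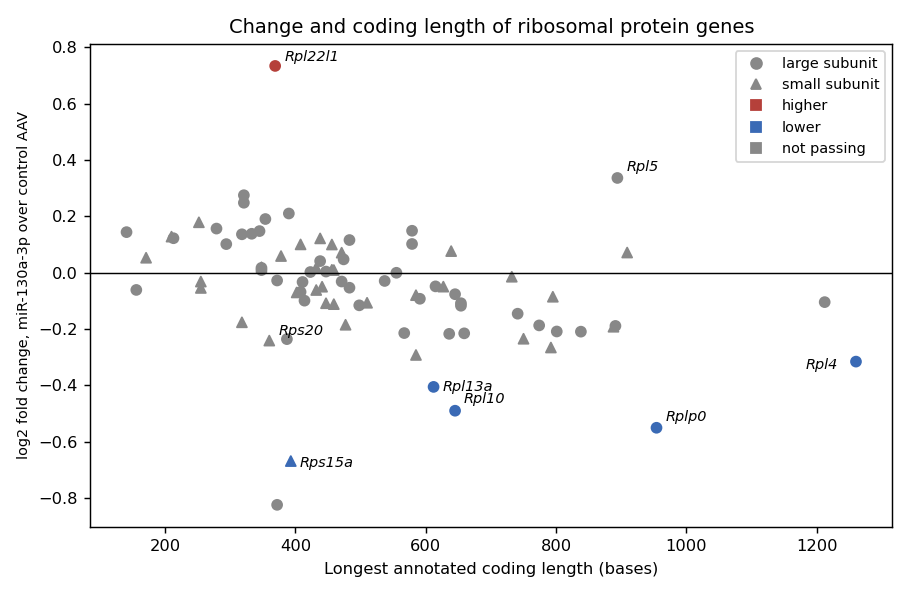
Log2 fold change on the log2(TPM + 1) scale against the longest annotated coding length in bases for 86 tested members. Points fall from left to right, with a Spearman rho of −0.51 over the 87 members with a length, and the short gene Rps15a lies low at −0.67 and Rpl22l1 high at 0.73.

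Single libraries differed in this relation. Between coding length and the deviation of a member from its own mean, rho lay between −0.45 and −0.32 in all 5 miR-130a-3p AAV libraries, and was 0.20, 0.46, 0.70, 0.19 and −0.42 in control 3, 4, 5, 7 and 9. The sign was thus negative in every miR-130a-3p AAV library and in control 9, and positive in the other 4 controls. Each deviation is taken from the mean over the same 10 libraries. These signs therefore partly restate the relation of fold change and length and are no separate observation. Without control 5 rho between fold change and length was −0.33, and without control 9 it was −0.60. The map of members by library shows both controls.

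**Figure D5:**
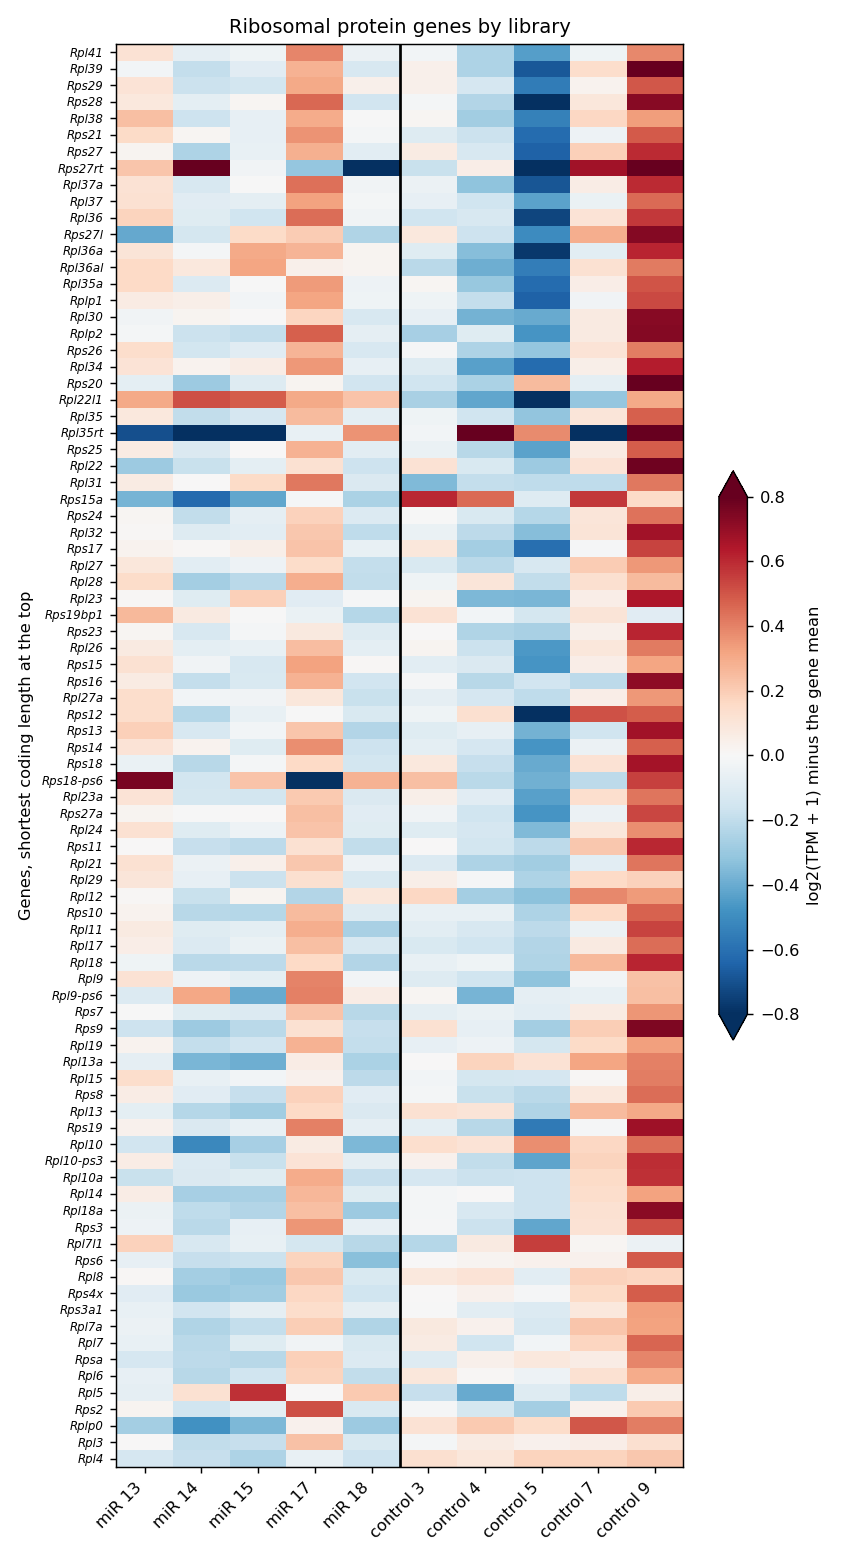
Deviation of log2(TPM + 1) from the gene mean for 86 tested members (rows, shortest coding length at the top) in each library (columns), with colour limits shown on the bar. Control 5 is low and control 9 high for most rows, and miR 17 is high for most rows within its group.

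Of the ribosomal proteins that the name rule leaves out, Rack1, the signalling scaffold on the small subunit head, was called lower. It was at 229 ± 25.6 TPM in the miR-130a-3p AAV group and 312 ± 38.1 TPM in the control AAV group, without overlap (SD, n = 5 each; log2 fold change −0.44, limma adjusted p = 0.0199). The call was lost without miR 14 or control 7 (up to 0.0596) and with median-ratio scaling (0.159). Fau, which encodes a small subunit protein fused to a ubiquitin-like domain, was at 243 ± 27.9 and 247 ± 61.4 TPM (SD, n = 5 each; limma adjusted p = 0.999).

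Elongation factors drive the ribosome along the message. Of 11 elongation and release genes 3 were lower and 0 higher, or 27.3% and 0%, with a median log2 fold change of −0.10, beside 11.3% lower and 2.19% higher over all tested genes. Eef1a1, which carries aminoacyl-tRNA to the ribosome, was at 2269 ± 223 and 3150 ± 234 TPM (SD, n = 5 each; log2 fold change −0.48, limma adjusted p = 0.0107). Eef1d, a subunit of its exchange factor, lay between 73.3 and 112 TPM in the miR-130a-3p AAV group, against 111 and 147 TPM in the control AAV group (limma adjusted p = 0.0193). Eef2, the translocase, was at 740.4 ± 110.5 and 1037 ± 161 TPM (SD, n = 5 each; limma adjusted p = 0.0374). Eef2 was not called without any 1 of 8 libraries, all but miR 17 and control 9 (up to 0.0945), Eef1d was not called without control 7 (0.0532), and with median-ratio scaling all 3 were lost (0.104 to 0.146). Of 29 initiation genes 3 were lower and 0 higher, with a median of −0.02; the 10.3% lower is near the 11.3% of all genes. Pabpc1, which binds the poly(A) tail, was at 106 ± 9.73 and 166 ± 23.6 TPM (log2 fold change −0.63, limma adjusted p = 0.00460), Eif4b, a helicase cofactor, at 98.5 ± 4.02 and 124 ± 8.20 TPM (0.0153) and Eif3f at 89.3 ± 12.1 and 116 ± 5.49 TPM (0.0262). The groups did not overlap for these 3 of the 29 initiation genes and for Eef1a1 alone of the 11 elongation and release genes. Over all tested genes 9.46% were separated downward. Pabpc1 held in every alternative (0.00246 to 0.0230), Eif4b was lost with median-ratio scaling (0.0838), and Eif3f was lost there (0.189) and without miR 14, 15 or 18 or control 3, 4 or 7 (up to 0.0736).

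A list of 18 TOP transcripts outside the name rule had 7 lower (38.9%) and 0 higher members and a median log2 fold change of −0.21, beside 11.3% and 2.19% over all tested genes. The 7 were Rack1, Eef1a1, Eef1d, Eef2, Pabpc1, Eif4b and Eif3f, all already counted in the lists above, and the other 11 did not pass. Of these 7, only Pabpc1 was still called with median-ratio scaling (limma adjusted p = 0.0230). The rest of the 7 were then at 0.0838 to 0.189, so this count depends on the scaling. Of 34 ribosome biogenesis genes 4 were lower and 1 higher, or 11.8% and 2.94%, close to the 11.3% and 2.19% of all tested genes, with a median of −0.14. Tcof1, which promotes ribosomal RNA transcription, was at 10.01 ± 1.83 and 16.0 ± 2.69 TPM (limma adjusted p = 0.0145) and Pes1, needed for large subunit assembly, at 26.4 ± 2.26 and 34.6 ± 4.48 TPM (0.0357). Nop10, a small protein of the pseudouridylation particles, was higher at 52.6 ± 6.36 and 38.9 ± 5.21 TPM (SD, n = 5 each; limma adjusted p = 0.0282). Tcof1 held without any 1 library and was at 0.0566 with quantile normalization. Pes1 was lost in 7 of 10 fits without 1 library, all but those without miR 14, control 3 or control 9 (up to 0.0938), and with median-ratio scaling (0.114), and Nop10 was lost in 7, all but those without miR 14, miR 18 or control 9 (up to 0.0742).

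Of 17 regulators of TOP messages and mTOR 3 were lower and 1 higher, or 17.6% and 5.88%, with a median of −0.20, beside 11.3% and 2.19% over all tested genes. Sesn2, an inhibitor of mTORC1 that senses leucine, was at 7.06 ± 0.595 and 10.99 ± 1.74 TPM (SD, n = 5 each; limma adjusted p = 0.0114), and Eif4ebp2, the main eIF4E repressor of brain, at 16.5 ± 1.49 and 20.7 ± 1.60 TPM (0.0460). Rheb, the activator of mTORC1, was higher in every miR-130a-3p AAV library than in any control, at 132 ± 12.8 and 106 ± 3.37 TPM (0.0331). The third lower gene was Akt1, a kinase upstream of mTORC1 that activates it, named after its values were seen, at 94.4 ± 5.70 and 124 ± 19.2 TPM (SD, n = 5 each; limma adjusted p = 0.0469). Sesn2 held without any 1 library and was at 0.0631 with quantile normalization. Eif4ebp2 was lost without any 1 library other than miR 17 or control 9 (up to 0.113) and with median-ratio scaling (0.167), and Rheb was lost without miR 13, 14 or 15 or control 3, 4 or 7 (up to 0.0852). Over these 98 translation, biogenesis and regulator genes together, 14 were lower and 2 higher, or 14.3% and 2.04%, beside 11.3% and 2.19% of all tested genes. Their number of lower calls was 3 with median-ratio scaling, 5 without control 7 and 23 without control 9.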

How the data were processed

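The authors deposited TPM per gene and library, with symbols and biotypes. The build GRCm39 and the tools fastp, DESeq2, RSEM and HISAT2 are named, without versions or roles, per the submitters' processing notes. Per the labels' protocols, samples needed a RIN of 6.5 or more, and libraries were stranded and poly(A)-selected. TPM keeps no depth, so no counting interval was computed and count models were not used. Columns were assigned by the sample titles, and the authors' 2 columns of group means were not used.

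From these values, log2(TPM + 1) of the 15680 genes with a mean of at least 1 TPM was fitted with limma 3.58.1 (R 4.3.3; trended variance, Benjamini-Hochberg adjustment, threshold 0.05, 2-sided, 5 against 5 libraries, no covariate), after a check on simulated data. No batch is labelled; the numbers of the control libraries all precede those of the miR-130a-3p libraries, and whatever followed that order cannot be told apart from the group. Shares were sums of TPM, and single shares were compared by an exact permutation test (smallest possible p 0.00794). No sum, ratio or score over the members was tested. Coding lengths and 3′ untranslated regions were taken from GENCODE M21 (GRCm38) by gene identifier and promoters from RefSeq, so no coordinate of the deposited files is involved.

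The members and lists were chosen with earlier results of these data known. Genes named were the members past the threshold (up to 8 in each direction), the 3 most abundant, 2 least abundant and 3 lowest-p members per subunit, all paralogs, the stalk and 5S particle genes, and the 3 lowest-p genes of each other list. Others are said to be named after their values were seen, as are Rps20, Rpl31, Rpl36a and Rps23, or are named to say what a list holds. Alternatives covered the pseudocount, filter, scaling, variance moderation and single libraries. Some items are counted but not reported here by name or drawn. Figures used Python 3.11.15 and matplotlib 3.10.9.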

Additional observations from a re-analysis of the deposited data

Results flagged for a closer look

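Of 104 groups of 5 values examined, 6 held 1 library farther from the others than Dixon's critical value of 0.71 for the gap over the range, a rate that chance gives in about 1 of 20 groups. In the miR-130a-3p AAV group, miR 17 was high for the stalk genes Rplp1 (2824 TPM, the others 2211 to 2370 TPM; 0.740) and Rplp2 (541 TPM, the others 341 to 384 TPM; 0.782), and miR 13 was high for the mTORC1 inhibitor Sesn2 (8.09 TPM, the others 6.63 to 7.01 TPM; 0.740). In the control AAV group, control 9 was high for Rpl11 (868 TPM, the others 515 to 579 TPM; 0.819), Rps4x (843 TPM, the others 599 to 669 TPM; 0.712) and the paralog Rpl39l (2.68 TPM, the others 0 to 0.43 TPM; 0.840).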

How the results depend on the processing

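The counts of calls moved with the filter, the scaling and single libraries. With no filter on low values, 3 members were lower and 0 higher (large subunit 2 and 0), all genes counted 1124 lower and 178 higher, and the translation and biogenesis lists 6 and 0. With median-ratio scaling 0 members were lower and 2 higher (large subunit 0 and 2, small subunit 0 lower). All genes then counted 1192 lower and 862 higher, and the lists had 3 lower and 4 higher. With quantile normalization 4 members were lower and 2 higher, the higher ones both large subunit. All genes then counted 1046 lower and 1071 higher, and the lists 7 lower. Rescaled without mitochondrially encoded genes the lists had 8 lower. The members then took 6.97% of TPM in the miR-130a-3p AAV group and 6.94% in the control AAV group. Of protein-coding TPM they took 6.70% and 6.91%. The core genes alone gave a large to small ratio of 1.30 in the miR-130a-3p AAV group and 1.33 in the control AAV group. Without both control 7 and control 9, an alternative chosen after seeing the data, 4 members were lower and 4 higher. The higher ones were all large subunit. Over all genes, lower calls still outnumbered higher calls in that fit.

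When each library was left out in turn, 3 to 5 members were lower and 0 to 3 higher, of the large subunit 2 to 4 and 0 to 3, and of the small subunit 1 lower throughout. All genes ranged from 1108 to 2922 lower and 146 to 499 higher, and the lists from 5 to 23 and 0 to 2; the most lower calls came without control 9 and the fewest without control 7, in both. The share of the members was 5.43 to 5.83% in the miR-130a-3p AAV group and 5.41 to 6.24% in the control AAV group, the ratio 1.34 to 1.35 and 1.34 to 1.37. The mitochondrial share differed by 3.10 to 4.08 percentage points and the pseudogene share by 0.602 to 0.970. Over the genes named, 706 results under alternatives kept their direction and side of the threshold, 107 no longer passed, 3 newly passed and 0 reversed. The cause of these shifts was not tested. No paired analysis was possible because the groups share no library numbers. Depth is unknown, and 5 libraries a group limit the precision.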
